A study of Mus musculus with 12 samples.

Results

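The 10 genes described here encode ubiquitin-based brakes and adaptors of NF-κB signalling. They are Tnfaip3, Tnip1, Tnip2, Tnip3, Cyld, Traf1, Traf2, Traf3, Traf6 and Birc3, and they were taken by name, with no threshold on their values. The choice was made with earlier results of these data known, so their counts are no independent test against the shares of all genes. They make up 10 of the 16920 genes in the table, and 10 of the 12064 that passed the filter on low counts and were tested. RNA had been sequenced from peritoneal macrophages of C57BL/6 mice in 12 libraries, 3 in each of 4 groups. The groups were wild-type cells (WT) with PBS, WT cells with lipopolysaccharide (LPS), Ythdf1-/- cells (KO) with PBS and KO cells with LPS. The knockout had been made with CRISPR/Cas9 and was not limited to macrophages, LPS was given at 1 µg/mL, and all cells were collected after 6 h. The cells had been drawn into the peritoneum with an irritant before collection, so they were elicited and not only resident cells. The paper describes the 3 samples of a group as biological replicates, but whether each library came from 1 mouse or from several was not stated. The p-values therefore measure the spread between these libraries. The comparisons ask how these genes answered LPS and whether that answer differed between the genotype labels.

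NF-κB signalling downstream of the LPS receptor runs through ubiquitin chains, which hold the kinase complexes TAK1 and IKK together. TRAF6 and cIAP2 (the product of Birc3) build such chains, TRAF2 and TRAF3 bring ligases to their receptors, and TRAF1 is a family member that binds TRAF2 and lacks a RING domain of its own. A20 (the product of Tnfaip3) and CYLD edit or remove the chains, and the ABIN proteins (Tnip1, Tnip2 and Tnip3) bind ubiquitin and A20 and restrain the same complexes. Several of these genes are themselves textbook NF-κB targets, which makes them a feedback loop.

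Because the promoters of such targets carry κB sites, the RefSeq promoter windows of the 10 genes (build GRCm38.p6, 250 bases before to 50 after a transcription start) were searched on both strands for the 10-letter κB consensus. All 10 genes were found in the table, with 11 windows. A match lay in 5 of the 11 windows, belonging to Tnfaip3, Tnip1, Tnip3, Traf3 and Cyld, whereas 5.80% of all 32851 windows of the same length held one. The 5 promoters with a match are printed with the match in capitals, up to the outer end of the RefSeq gene span or to the end of a match that reaches into it, since they let the distance of the motif be compared with the size of the response below. Traf1 follows them because it rose 85.2-fold with LPS in WT and its window held no match.
Tnfaip3, chr10:19015411-19015540, minus strand: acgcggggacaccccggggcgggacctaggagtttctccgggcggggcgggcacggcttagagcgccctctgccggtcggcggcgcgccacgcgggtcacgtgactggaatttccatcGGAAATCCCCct
Tnip1, chr11:54962957-54963086, minus strand: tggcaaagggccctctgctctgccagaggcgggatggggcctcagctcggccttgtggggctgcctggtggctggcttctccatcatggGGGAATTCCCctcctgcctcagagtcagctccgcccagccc
Tnip3, chr6:65590268-65590397, plus strand: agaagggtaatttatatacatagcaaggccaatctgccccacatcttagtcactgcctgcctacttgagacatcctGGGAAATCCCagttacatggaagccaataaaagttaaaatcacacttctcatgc
Traf3, chr12:111166340-111166369, plus strand: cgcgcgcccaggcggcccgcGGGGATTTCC
Cyld, chr8:88696778-88696882, plus strand: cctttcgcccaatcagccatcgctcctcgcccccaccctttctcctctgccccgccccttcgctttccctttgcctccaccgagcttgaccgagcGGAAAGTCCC
Traf1, chr2:34961813-34961942, minus strand: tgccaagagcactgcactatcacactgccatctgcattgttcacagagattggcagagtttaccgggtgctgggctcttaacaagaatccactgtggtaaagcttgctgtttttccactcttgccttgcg

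In Tnfaip3 the match began 12 bases before the start and read as the consensus on the strand opposite to the gene. In Tnip1 it began 57 bases before the start and matched on both strands, and in Tnip3 it began 54 bases before, on the opposite strand. A run of bases after the Tnip1 start stood whole in no annotated transcript, unlike those of the other windows, so that distance is less sure. In Traf3 the match began 10 bases before the start on the gene's own strand, and in Cyld 155 bases before, on the opposite strand. These starts are those of the promoter windows, and in 5 genes the RefSeq gene span reaches further out, by 150 bases in Cyld, 49 in Traf3, 40 in Traf1, 35 in Birc3 and 16 in Tnip1. The Cyld match therefore lies across the outer end of the gene span, and the Traf3 match, printed with 20 bases before it, lies inside the span. The windows of Traf1, Traf2, Traf6, Tnip2 and Birc3, and a further window of Tnfaip3, did not hold these letters, which says nothing on the rest of each locus. A match is a run of letters and not a shown binding site. In WT the responses described below ran from 6.56 log2 units in Tnip3 to 0.35 in Traf3 among the 5 genes with a match. Among the genes without one they ran from 6.41 in Traf1 to 0.27 in Traf6. The presence of a match thus did not sort the genes by the size of their response.

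Total counts lay between 21546274 and 22017005 per library. Scaling by TMM, a trimmed mean over gene-wise log ratios, gave factors of 1.26 to 1.31 in the PBS libraries and 0.744 to 0.808 in the LPS libraries, so levels are given as normalised read counts (CPM, the count scaled by library size) on that scale. Replicate 1 of the WT LPS group stood apart from its 2 partners, with a mean chi-square per gene of 32.8 and 25.5 against 3.09 between those partners, and pairs in the other groups lay between 2.77 and 16.7. The 9 macrophage markers had at least 3 counts in each library, with summed levels of 17446 to 20028 CPM, most of it from Lyz2. Of these 9, 5 did not overlap between the genotype labels under PBS, 3 higher and 2 lower in KO, and 5 did not under LPS, 1 higher and 4 lower, where 48.1% and 45.6% of all genes did not overlap. Among them Mrc1 was at 263 to 280 CPM in WT PBS and 109 to 125 in KO PBS, Mertk at 225 to 246 in WT LPS and 87.6 to 107 in KO LPS, and Cd14, the LPS co-receptor, at 433 to 479 in WT LPS and 694 to 764 in KO LPS. The summed markers of B cells, T cells, NK cells, mast cells, eosinophils and mesothelium stayed at or under 3.40 CPM in each library, and those of neutrophils lay between 4.0 and 15.2 CPM, nearly all from S100a8. The 3 fibroblast markers were detected in all groups and ran with the genotype label, at 35.3 to 42.3 CPM in WT PBS, 56.4 to 62.5 in WT LPS, 17.2 to 24.3 in KO PBS and 27.2 to 37.2 in KO LPS. The 3 skeletal muscle markers summed to 14.5 to 29.4 CPM in the WT libraries, to 0.106 (replicate 3) to 15.7 in KO PBS and to 0.123 to 0.249 in KO LPS, where Myh4 was at 0. The part of these marker differences in the differences between genotype labels was not tested.

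Ythdf1 itself, the targeted gene, was read in each library. Its level was 43.6, 45.0 and 41.9 CPM in WT PBS and 55.4, 58.1 and 58.1 CPM in KO PBS. Under LPS it was 212, 198 and 194 CPM in WT and 196, 192 and 205 CPM in KO. The transcript was thus not lower in the libraries labelled KO, and under PBS it was higher in them by 0.40 ± 0.06 (SE) log2 units (adjusted p = 0.000133). A count over the whole gene does not show whether a coding exon was broken, so the label was not checked by it, and KO below means the libraries so labelled.

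LPS raised the 10 genes in WT macrophages on the TMM scale, though Traf3 and Traf6 turned the other way when libraries were scaled by their totals alone. With edgeR's quasi-likelihood test and Benjamini-Hochberg adjustment over all genes tested, 10 of the 10 genes were called higher with LPS, where 36.5% of all genes tested were called higher and 40.2% lower (76.7% called in either direction). The 3 LPS libraries lay above the 3 PBS libraries for 10 of 10 genes, and 78.2% of all genes had groups that did not overlap. For 7 of the 10 the change was more than 1 log2 unit, which 36.4% of all genes reached in either direction. The median change of the 10 genes was 3.19 log2 units, against -0.05 for all genes. In the KO libraries 10 of 10 were again called higher (38.8% of all genes higher, 41.1% lower and 79.9% in all), 10 of 10 did not overlap (81.3% of all genes) and 7 of 10 changed by more than 1 log2 unit (41.7% of all genes). Their median there was 3.37 log2 units against -0.04. In bulk RNA, fewer cells of a type and less RNA per cell cannot be told apart. Together the 10 genes took 0.0323% to 0.0338% of the counts in a PBS library, 0.260% to 0.274% in a WT LPS library and 0.324% to 0.355% in a KO LPS library.

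**Figure D1:**
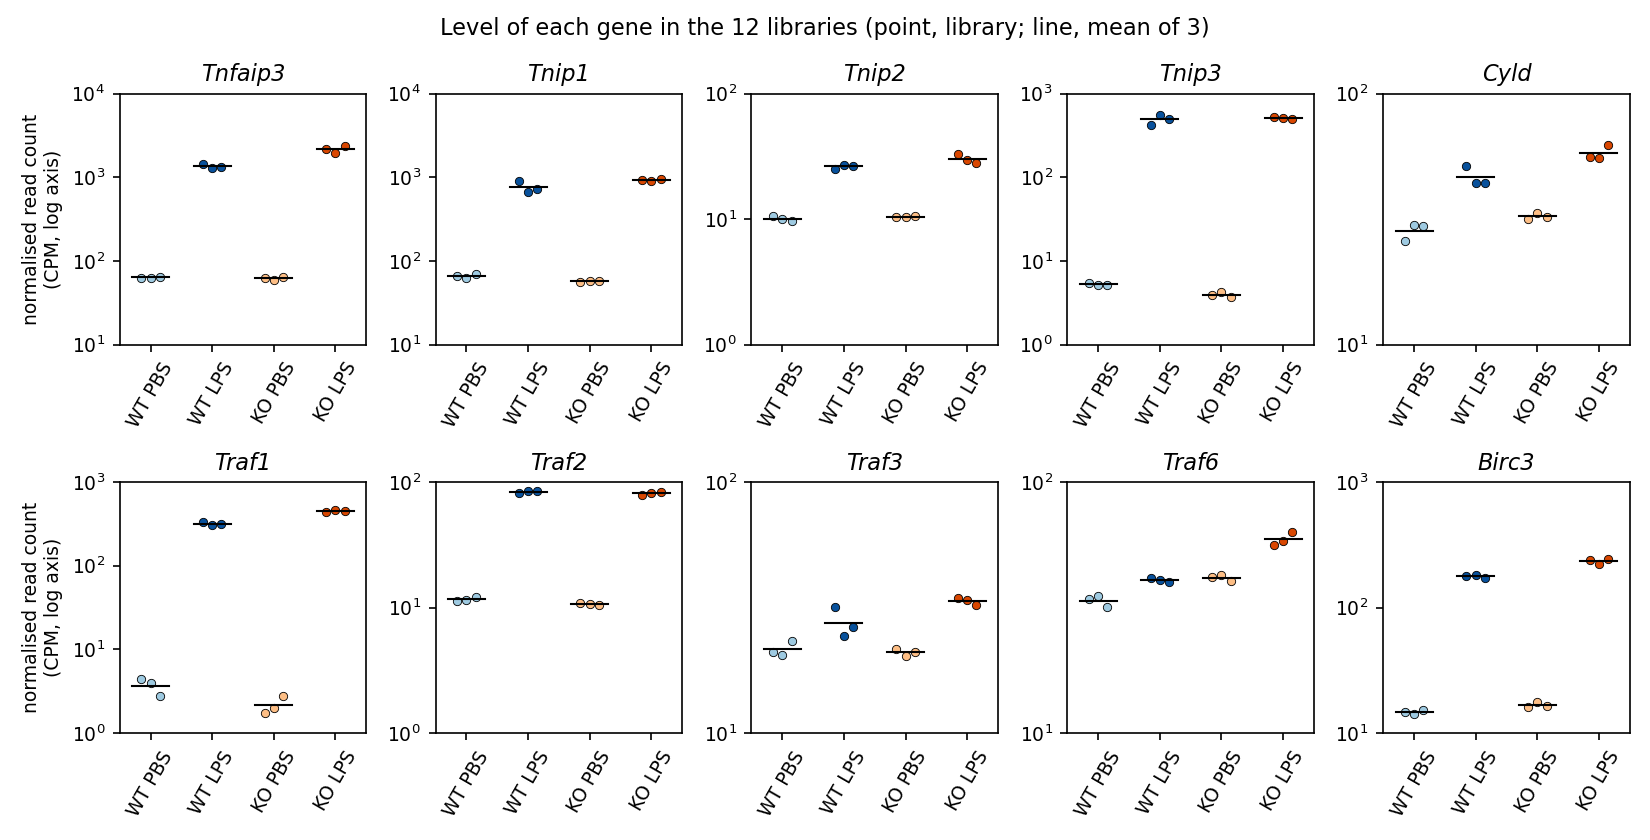
Normalised read count (CPM, log axis) of each of the 10 genes in the 12 libraries, by group, with 1 point per library and a line at the mean of 3. In each panel the LPS points of a genotype label lie above its PBS points, and the distance runs from 1.21-fold for Traf6 in WT to 206-fold for Traf1 in KO.

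Tnfaip3 (NCBI gene 21929, GRCm38.p6 chr10:19000910-19015410) encodes A20, the ubiquitin-editing enzyme whose loss unleashes NF-κB. Its level was 63.2, 62.4 and 64.6 CPM in the WT PBS libraries and 1430, 1292 and 1324 CPM in the WT LPS libraries. In KO it was 62.7, 59.7 and 63.4 CPM with PBS and 2188, 1927 and 2350 CPM with LPS. The PBS groups overlapped, and under LPS the lowest KO library lay above the highest WT library. The rise with LPS was 4.41 ± 0.08 (SE) log2 units in WT, or 21.3-fold (adjusted p = 1.25e-17), and 5.12 ± 0.08 in KO, or 34.8-fold (adjusted p = 2.80e-18). By its count, Tnfaip3 ranked between 2130 and 2295 among all genes in the PBS libraries, between 118 and 127 in WT LPS and between 61 and 88 in KO LPS.

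The ABIN genes differed widely among themselves. Tnip1 (gene 57783, chr11:54910787-54962956) encodes ABIN-1, which links A20 to its targets. It stood at 66.0, 63.1 and 68.8 CPM in WT PBS and at 889, 667 and 728 CPM in WT LPS, against 55.3, 57.1 and 57.8 CPM in KO PBS and 921, 912 and 964 CPM in KO LPS. Replicate 1 of WT LPS, the library that stood apart, was the highest of its group and lay just under the KO range. The rise was 3.53 ± 0.09 log2 units in WT and 4.04 ± 0.09 in KO. Tnip3 (gene 414084, chr6:65590398-65634040) encodes ABIN-3, known as the LPS-inducible member. It rose from 5.39, 5.19 and 5.15 CPM to 425, 553 and 502 CPM in WT and from 3.92, 4.25 and 3.72 CPM to 529, 504 and 495 CPM in KO. These were rises of 6.56 ± 0.10 and 7.0 ± 0.11 log2 units, and under LPS the WT and KO values overlapped. Tnip2 (gene 231130, chr5:34496096-34513979) encodes ABIN-2, which stabilises the kinase TPL2. It moved least of the family, from 10.7, 9.95 and 9.58 CPM to 25.2, 27.2 and 26.5 CPM in WT (1.38 ± 0.08 log2 units) and from 10.3, 10.4 and 10.6 CPM to 33.0, 29.7 and 27.9 CPM in KO (1.54 ± 0.08).

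Cyld (gene 74256, chr8:88696878-88751946) encodes a deubiquitinase that removes lysine-63-linked and linear chains. In WT it was at 25.9, 29.9 and 29.6 CPM with PBS and at 51.6, 44.1 and 44.1 CPM with LPS. In KO it was at 31.7, 33.3 and 32.3 CPM with PBS and at 56.0, 55.2 and 62.6 CPM with LPS. The rise was 0.71 ± 0.08 log2 units in WT and 0.84 ± 0.08 in KO, far under that of Tnfaip3, and it was not called when libraries were scaled by their totals alone (0.05 in WT and 0.04 in KO). Its counts carried decimals in 12 of 12 libraries, as did those of Birc3, while those of Traf1 did so in 7. Decimals are what a counter that divides reads between gene models would give, so the values of these 3 genes may hold reads that fit another gene as well.

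The TRAF genes split into 2 that rose strongly and 2 whose direction rested on the scaling. Traf1 (gene 22029, chr2:34941750-34961812) was near silence without LPS, at 4.38, 3.97 and 2.75 CPM in WT and 1.75, 2.0 and 2.80 CPM in KO. With LPS it reached 330, 304 and 313 CPM in WT and 440, 457 and 454 CPM in KO. This was the largest response of the 10 in KO (7.68 ± 0.14 log2 units, 206-fold) and stood beside that of Tnip3 in WT (6.41 ± 0.13, 85.2-fold). Traf2 (gene 22030, chr2:25517982-25546940), the adaptor that carries cIAP proteins to TNF receptors, rose from 11.2, 11.5 and 12.1 CPM to 82.4, 84.2 and 84.5 CPM in WT and from 10.8, 10.7 and 10.4 CPM to 78.3, 81.8 and 83.6 CPM in KO. The changes were 2.85 ± 0.06 and 2.93 ± 0.06 log2 units. Birc3 (gene 11796, chr9:7847468-7873205), the ligase recruited by TRAF2, rose from 14.6, 14.1 and 15.2 CPM to 178, 181 and 171 CPM in WT and from 16.1, 17.8 and 16.5 CPM to 241, 222 and 241 CPM in KO, by 3.59 ± 0.07 and 3.81 ± 0.07 log2 units.

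Traf3 (gene 22031, chr12:111166321-111267155), which restrains the non-canonical NF-κB kinase NIK, gave 21.1, 20.5 and 23.3 CPM in WT PBS and 31.8, 24.4 and 26.5 CPM in WT LPS. In KO it gave 21.6, 20.2 and 21.0 CPM with PBS and 34.6, 34.0 and 32.3 CPM with LPS. Traf6 (gene 22034, chr2:101678420-101701668), the ligase that carries the signal of the LPS receptor itself, gave 34.1, 35.1 and 31.7 CPM in WT PBS and 41.3, 40.6 and 39.8 CPM in WT LPS. In KO it gave 41.8, 42.5 and 40.3 CPM with PBS and 56.3, 58.0 and 63.5 CPM with LPS. On the TMM scale Traf3 rose by 0.35 ± 0.09 log2 units in WT and 0.68 ± 0.09 in KO, and Traf6 by 0.27 ± 0.06 and 0.51 ± 0.06. Without replicate 1 of WT LPS, the highest of its group, the rise of Traf3 in WT was 0.23 (adjusted p = 0.00979). The unscaled counts ran the other way. Traf6 had 943, 980 and 888 counts in WT PBS and 714, 713 and 706 in WT LPS, at nearly equal totals, and the counts of Traf3 fell from 584, 573 and 651 to 550, 428 and 469.

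The 2 readings of Traf3 and Traf6 follow from what the libraries were compared with. Scaled by totals alone, the median gene changed by -0.71 log2 units with LPS in WT and by -0.84 in KO, and with the upper quartile by -0.36 and -0.40, against -0.05 and -0.04 with TMM. Under totals alone Traf3 changed by -0.32 in WT (adjusted p = 0.00233) and by -0.12 in KO (adjusted p = 0.188), and Traf6 by -0.39 (adjusted p = 1.65e-05) and by -0.29 (adjusted p = 0.000271). With the upper quartile, Traf3 in WT changed by 0.04 and Traf6 in WT by -0.04, neither of them called. Relative to the median gene, the change of Traf6 in WT was 0.32 log2 units under each of the 4 scalings, that of Traf3 was 0.39 to 0.40 and that of Cyld was 0.76. In KO the values relative to the median gene were 0.55, 0.72 and 0.88, in the same order. The other 7 genes were called higher in both genotype labels under all 4 scalings. Of all calls in WT with LPS, 47.6% were higher under TMM, 32.5% with the upper quartile and 21.2% under totals alone, and in KO the shares were 48.6%, 33.8% and 20.8%.

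**Figure D2:**
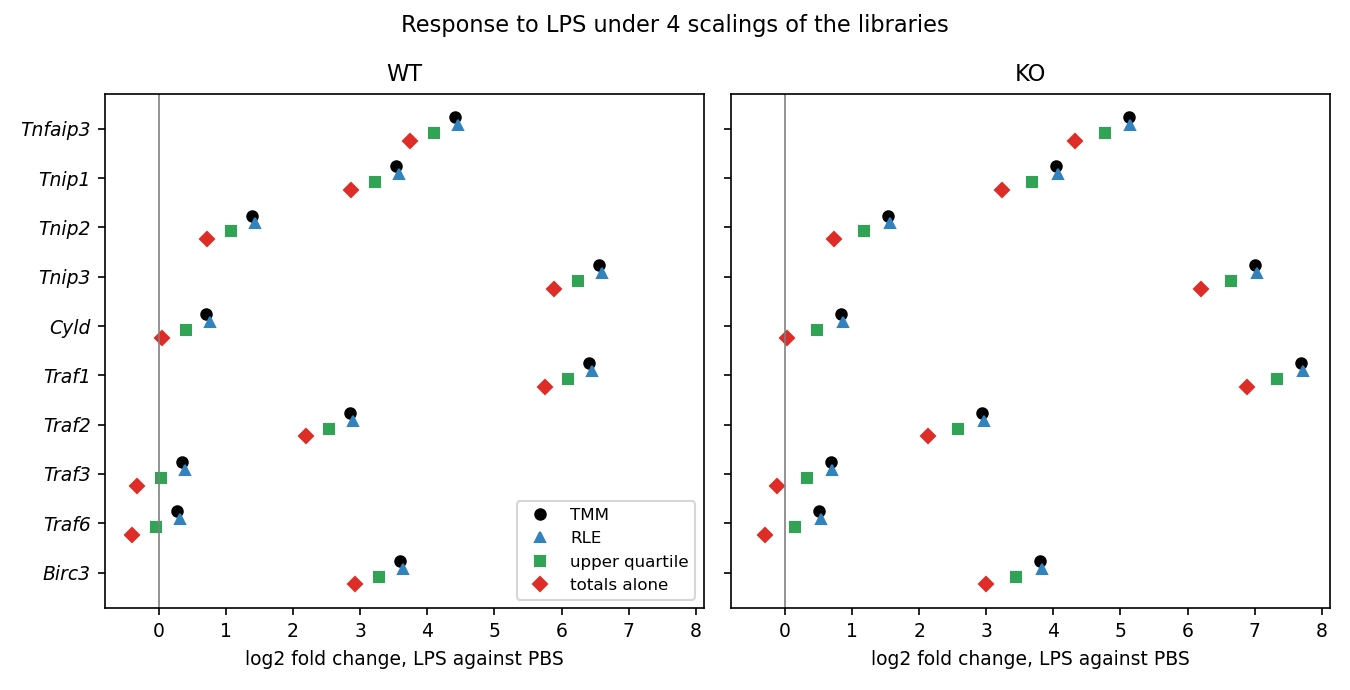
Log2 fold change with LPS of the 10 genes in WT (left) and KO (right) under TMM, RLE, upper-quartile and totals-only scaling of the libraries. Each gene shifts left by nearly the same distance under the upper quartile and totals alone, and only Traf3 and Traf6 then reach or cross 0 while Cyld comes to 0.05 and 0.04.

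Levels were compared between genes per kilobase of the union of annotated exons, as CPM per kilobase. In WT PBS Tnip1 was highest, at 18.6 ± 0.8 (SD, n = 3), followed by Tnfaip3 at 8.77 ± 0.15, Traf6 at 4.27 ± 0.22 and Tnip2 at 3.75 ± 0.21. Traf3 (2.94) and Birc3 (2.93) overlapped, as did Traf2 (2.27) and Cyld (2.26), and Tnip3 (0.480) and Traf1 (0.419) overlapped at the bottom. With LPS the order was redrawn. In WT LPS Tnip1 (215 ± 32) and Tnfaip3 (187 ± 10) overlapped at the top, then came Tnip3 (45.2 ± 5.9), Traf1 (35.8 ± 1.5) and Birc3 (35.3 ± 1.1), of which the last pair overlapped, then Traf2 (16.4), Tnip2 (9.79) and Traf6 (5.15), with Traf3 (3.75) and Cyld (3.71) overlapping at the bottom. In KO PBS the order from the top was Tnip1 (16.0), Tnfaip3 (8.57), Traf6 (5.27), Tnip2 (3.88), Birc3 (3.35), Traf3 (2.85), Cyld (2.58), Traf2 (2.08), Tnip3 (0.363) and Traf1 (0.248), with no overlap between neighbours. In KO LPS Tnfaip3 (298 ± 30) and Tnip1 (263 ± 8) overlapped at the top, Traf1 (51.0) came next, Birc3 (46.9) and Tnip3 (46.7) overlapped, Traf2 (15.9), Tnip2 (11.3) and Traf6 (7.52) followed, and Cyld (4.61) and Traf3 (4.57) overlapped at the bottom.

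Ratios of counts within a library do not depend on the scaling. The ratio of Tnfaip3 to Cyld, the ubiquitin editor to the deubiquitinase, was 2.44, 2.09 and 2.18 in WT PBS and 27.7, 29.3 and 30.0 in WT LPS, against 1.98, 1.79 and 1.96 in KO PBS and 39.0, 34.9 and 37.5 in KO LPS. The LPS libraries labelled KO thus lay above those labelled WT without overlap, whereas the PBS libraries labelled KO lay below. The ratio of Traf1 to Traf2 went from 0.392, 0.346 and 0.227 to 4.0, 3.61 and 3.70 in WT and from 0.162, 0.187 and 0.269 to 5.62, 5.58 and 5.43 in KO, so Traf1 passed from the minor to the major transcript by count. Birc3 to Traf2 went from 1.26 ± 0.04 (SD, n = 3) to 2.11 ± 0.08 in WT and from 1.58 ± 0.09 to 2.89 ± 0.18 in KO. Tnfaip3 to Tnip1 went from 0.962 ± 0.026 to 1.79 ± 0.17 in WT and from 1.09 ± 0.04 to 2.31 ± 0.17 in KO. For Tnip3 to Tnip1 the WT LPS libraries gave 0.478, 0.829 and 0.690 and enclosed the KO values of 0.574, 0.553 and 0.514. The low value of 0.478 was again replicate 1.

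**Figure D3:**
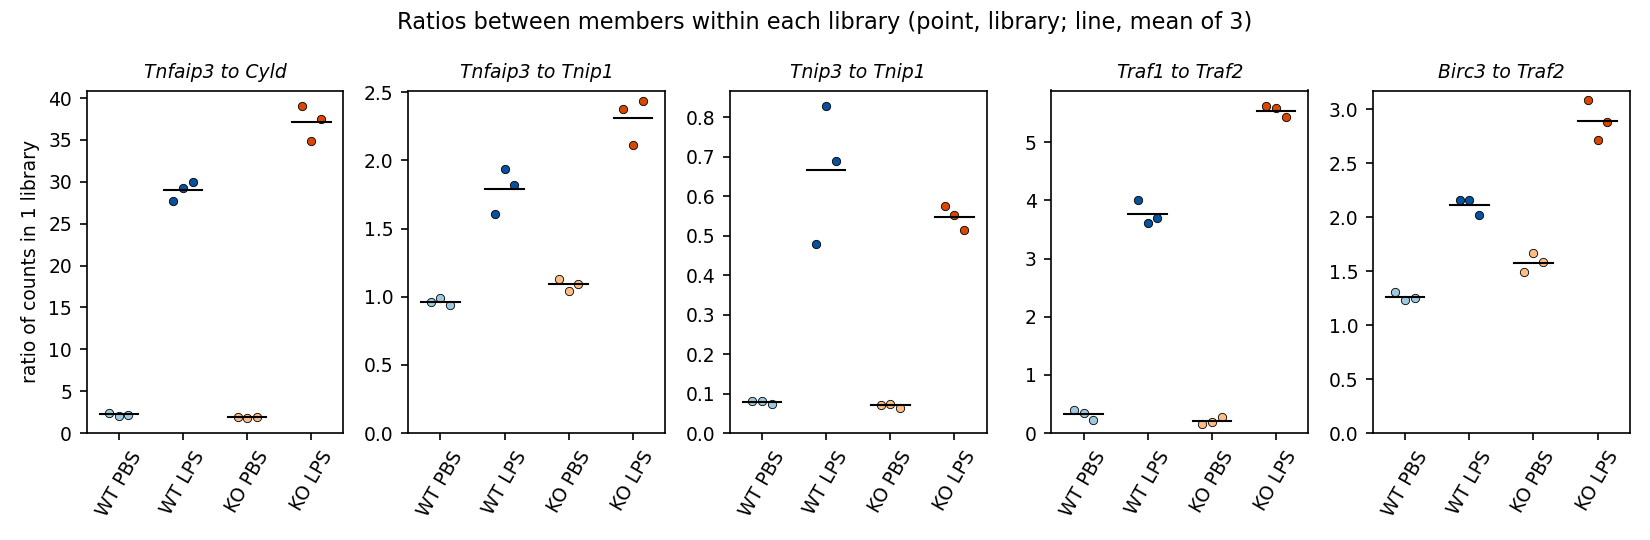
Ratio of the counts of 2 genes within each library, by group, with 1 point per library and a line at the mean of 3. Ratios of Tnfaip3 to Cyld, Tnfaip3 to Tnip1, Traf1 to Traf2 and Birc3 to Traf2 are higher in each KO LPS library than in each WT LPS library, whereas Tnip3 to Tnip1 overlaps. Under PBS, Birc3 to Traf2 and Tnfaip3 to Tnip1 are already higher in each KO library. Tnfaip3 to Cyld and Tnip3 to Tnip1 are lower there, and Traf1 to Traf2 overlaps. For scale, 45.6% of all genes did not overlap between the labels under LPS.

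Before stimulation the differences between the genotype labels ran in both directions. Under PBS, 4 of the 10 were called between KO and WT, where 25.3% of all genes tested were called (12.3% higher and 13.0% lower in KO). Traf6 was higher in KO by 0.30 ± 0.06 log2 units (adjusted p = 0.00213) and Birc3 by 0.20 ± 0.07 (adjusted p = 0.0432). Traf1 was lower in KO by a change of -0.76 ± 0.17 (adjusted p = 0.00432) and Tnip3 by one of -0.40 ± 0.12 (adjusted p = 0.0215). For Traf1, KO replicate 3 (2.80 CPM) overlapped WT replicate 3 (2.75 CPM), so the difference lay in the other libraries. With the upper quartile 1 was higher and 3 were lower in KO, with Tnip1 called and Birc3 not, and under totals alone 3 were higher and 1 was lower, with Cyld called and Tnip3 not. The PBS groups did not overlap for 6 of the 10 genes, and for 48.1% of all genes. The median of the 10 was -0.04 log2 units, against 0.0004 for all genes. Without replicate 1 of WT PBS only Traf1 and Traf6 stayed past the threshold, 2 of the 10, whereas 6 of the 10 were called when only the PBS libraries were fitted and likewise without replicate 1 of WT LPS. The call of Birc3 was lost in 9 of 20 alternatives (adjusted p up to 0.147) and that of Tnip3 in 4 of 20 (adjusted p up to 0.0994).

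Under LPS the same comparison gave a one-sided picture. Of the 10 genes 8 were called higher in KO than in WT and the other 2 were not called, where 41.4% of all genes were called, 22.1% higher and 19.3% lower. The LPS groups did not overlap for 8 of the 10 genes, and for 45.6% of all genes. Tnfaip3 was higher by 0.68 ± 0.07 log2 units, or 1.60-fold (adjusted p = 1.37e-06), Traf6 by 0.55 ± 0.06, or 1.46-fold (adjusted p = 6.67e-06), Traf1 by 0.51 ± 0.09, or 1.43-fold (adjusted p = 0.000371) and Birc3 by 0.41 ± 0.06, or 1.33-fold (adjusted p = 3.75e-05). Smaller differences were found in Cyld (0.31 ± 0.08), Tnip1 (0.29 ± 0.08), Traf3 (0.29 ± 0.09) and Tnip2 (0.20 ± 0.07). Tnip3 (0.05 ± 0.08) and Traf2 (-0.04 ± 0.05) were not called. The median of the 10 was 0.30 log2 units, against 0.0006 for all genes. The call of Tnip2 (adjusted p = 0.0376) was lost in 14 of 20 alternatives, with adjusted p up to 0.258 and a difference of 0.13 without replicate 1 of KO LPS and 0.11 under totals alone, and that of Traf3 (adjusted p = 0.0151) in 5 of 20, with adjusted p up to 0.0759. The scaling also moved the split of all genes, of which 53.4% of those called were higher in KO under TMM, 41.6% with the upper quartile and 37.9% under totals alone. Under totals alone Tnfaip3, Traf6, Traf1, Birc3, Cyld and Tnip1 were still called higher in KO.

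**Figure D4:**
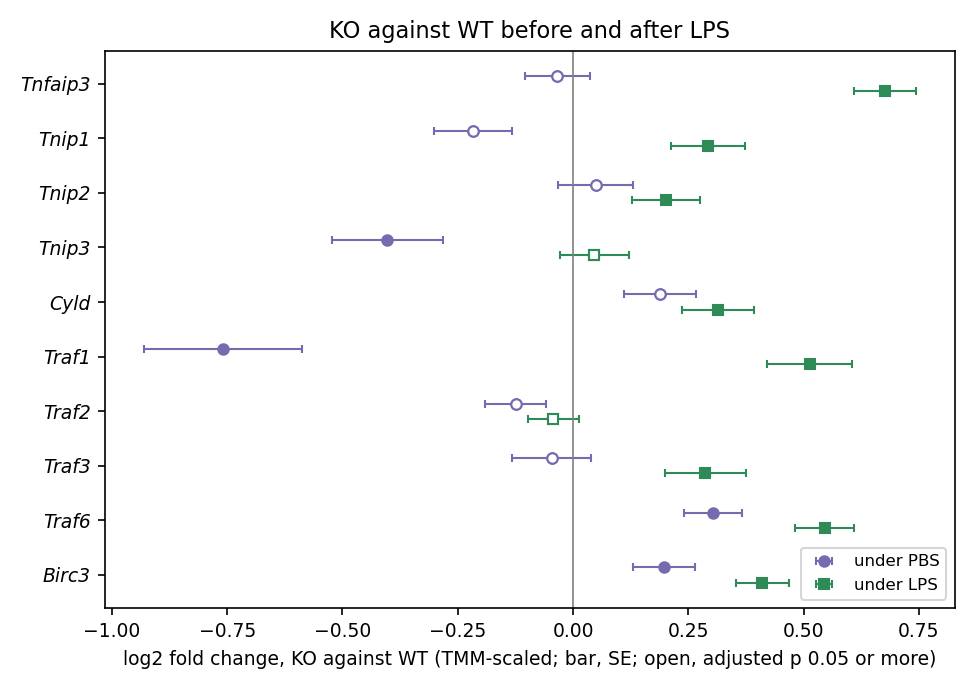
Log2 fold change of KO against WT for the 10 genes under PBS (circles) and under LPS (squares), with SE bars and open symbols where the adjusted p was 0.05 or more. Under LPS the 8 filled squares lie between 0.20 and 0.68, whereas under PBS the values lie on both sides of 0, from -0.76 to 0.30.

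The difference between the 2 responses was tested with the interaction of genotype label and LPS. It was called in 4 of the 10 genes, where 18.0% of all genes were called, and in those 4 the rise was larger in KO. Of all genes 9.78% had a positive and 8.26% a negative called interaction, whichever way they moved with LPS. The interaction was 1.27 ± 0.19 log2 units in Traf1 (adjusted p = 0.000350), 0.71 ± 0.10 in Tnfaip3 (adjusted p = 0.000134), 0.51 ± 0.12 in Tnip1 (adjusted p = 0.00654) and 0.45 ± 0.14 in Tnip3 (adjusted p = 0.0374). These 4 genes came to their interaction by different routes. Tnfaip3 had no detectable difference under PBS (-0.03 ± 0.07), so the difference under LPS (0.68) made up nearly all of its interaction (0.71). In Traf1 the lower PBS level of KO (-0.76) gave more of the 1.27 than the higher LPS level did (0.51). In Tnip3 the PBS difference (-0.40) gave nearly all of it, since the LPS levels overlapped. In Tnip1 both parts were of like size, -0.22 ± 0.08 under PBS, which was not called (adjusted p = 0.0716), and 0.29 ± 0.08 under LPS.

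The other 6 genes had interactions between 0.08 ± 0.09 (Traf2) and 0.33 ± 0.12 (Traf3, adjusted p = 0.0722), none of them called. Traf6 and Birc3 were higher in KO under both conditions, by 0.30 and 0.20 log2 units with PBS and by 0.55 and 0.41 with LPS. Without replicate 1 of WT LPS the interactions of Traf3 (0.45, adjusted p = 0.00335) and Traf6 (0.26, adjusted p = 0.0482) were called as well, which made 6 of 10. The call of Tnip3 was lost in 10 of 19 alternatives, with adjusted p up to 0.169, whereas those of Tnfaip3, Traf1 and Tnip1 were kept in 19 of 19.

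**Figure D5:**
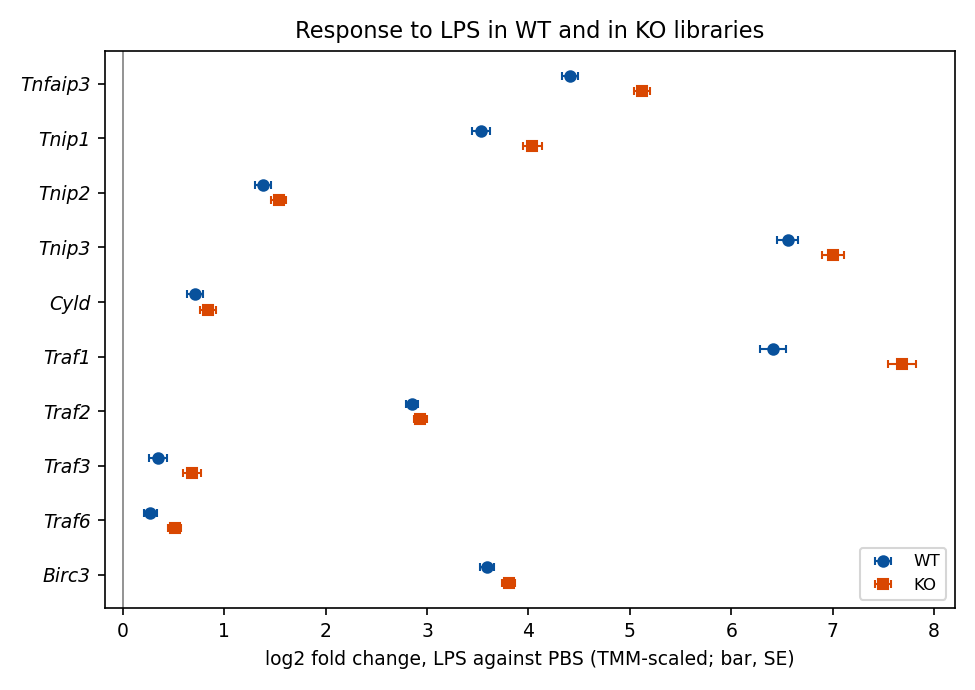
Log2 fold change with LPS (TMM scale, bars are SE) of the 10 genes in WT (circles) and KO (squares). The largest gaps between circle and square are those of Traf1 (6.41 and 7.68) and Tnfaip3 (4.41 and 5.12), and Traf2 shows nearly the same value in both (2.85 and 2.93).

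Other genes of the pathway moved in both directions with LPS, in numbers to be read against the 36.5% of all genes called higher and 40.2% called lower in WT (38.8% and 41.1% in KO). The counts are on the TMM scale and were not taken under the other scalings. Since totals alone and the upper quartile move the median of all genes, small changes may not hold under them. Among 7 A20 partners and deubiquitinases, 4 rose and 2 fell with LPS in WT, with a median of 0.24 log2 units. Tax1bp1, an adaptor that brings A20 to its substrates, rose from 140 ± 5 to 330 ± 44 CPM (SD, n = 3), by 1.23 ± 0.08 log2 units, and Otulin, the deubiquitinase specific for linear chains, fell by 0.54 ± 0.06. Among 10 ligases and conjugating enzymes, 8 rose and 2 fell in WT, and the same counts were found in KO. Peli1, a Pellino ligase of the IRAK pathway, rose by 3.94 ± 0.07 log2 units in WT and by 4.41 ± 0.07 in KO, while its relative Peli2 changed by -3.00 ± 0.14 and -3.82 ± 0.15. Of 8 other TRAF genes and TRAF partners, 6 rose and none fell in either genotype label, led by Trafd1, a negative regulator that carries a TRAF-type zinc finger, in WT (3.23 ± 0.05) and by Tank, a TRAF-binding regulator, in KO (3.43 ± 0.09). Traf4, with few counts, changed by -0.66 in KO and was not called. It was called lower there with the upper quartile (-1.01), under totals alone (-1.45) and without replicate 2 of KO LPS (-1.42). Of 9 genes of the kinase complexes that the chains feed, 4 rose and 2 fell in WT and 5 rose and 2 fell in KO. Tab2, which ties TAK1 to lysine-63-linked chains, rose by 1.56 ± 0.06 log2 units in WT, whereas the partner gene Tab1 changed by -0.74 ± 0.11.

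Between the genotype labels under LPS, 6 of the 9 kinase complex genes were higher in KO and 1 was lower, with a median of 0.41 log2 units, where 22.1% of all genes were higher and 19.3% lower. Ikbkg, the ubiquitin-binding subunit of the IKK complex, was at 49.0 CPM in WT and 72.4 CPM in KO, a difference of 0.56 ± 0.06 log2 units (adjusted p = 2.09e-06), and it was already higher under PBS (0.34 ± 0.06). Map3k14, which encodes the kinase NIK that TRAF3 holds down, was the 1 gene lower in KO, by a change of -0.71 ± 0.16 (adjusted p = 0.00185), at 4.97 CPM in WT and 3.04 CPM in KO. Of the ligases 3 of 10 were higher, with Peli1 at 264 ± 4 CPM in WT and 473 ± 2 CPM in KO (0.84 ± 0.06, adjusted p = 4.10e-08). The A20 partners and deubiquitinases gave 3 of 7 higher, led by Tax1bp1 (0.42 ± 0.08), and the other TRAF genes 2 of 8 higher, led by Tank (0.40 ± 0.08), and 1 lower. That 1 was Traf4, at 1.04 and 0.368 CPM, which rested on 3 to 22 counts per library and changed by -2.24 log2 units without replicate 2 of KO LPS, against -1.49 with it.

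Over the 12 libraries the genes whose log2 CPM ran most closely with Tnfaip3, among 6415 compared, were Cflar, N4bp1, Shisa3, Lcp2 and Slc7a2, with Pearson correlations of 0.9994 to 0.9997. Among the 10 genes Birc3 came nearest (0.998), then Tnip1 (0.998) and Traf1 (0.995), and Traf6 was the farthest (0.714). Those nearest to Cyld were Zfyve27, Prdm1, 0610030E20Rik, Hipk3 and Med13, at 0.988 to 0.993. The points fall into PBS and LPS libraries, so these values mostly describe the step between the 2 conditions.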

How the data were processed

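RNA from 12 libraries (4 groups of 3) had been sequenced as single-end reads on a BGISEQ-500. The authors deposited expected counts (estimated counts per gene, not scaled between libraries). The submitters' processing notes name Bowtie2, RSEM 1.3.1 and GRCm38.p6, whereas the paper's methods name STAR and HTSeq. As the irritant, the methods give thioglycollate and the series record starch broth. The decimals in the values are what a counter that shares reads would give.

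Counts were rounded to whole numbers, filtered with filterByExpr and scaled with TMM. A quasi-likelihood model with robust dispersions, holding 1 mean for each group, took in the 12 libraries together. It ran under edgeR 4.0.16 (R 4.3.3, limma 3.58.1) and was tested on simulated data. Those gave all groups the same means apart from a set of genes changed in KO LPS. They therefore do not bear on the choice of scaling between LPS and PBS libraries. The common biological coefficient of variation was 6.99%. Tests were two-sided, adjusted with the Benjamini-Hochberg method over 12064 genes, at a threshold of 0.05. Depth allowed a floor of 3 counts, equal to 0.105 to 0.187 CPM per library (counting error only). Lengths are unions of exons in GENCODE M21, and positions and promoters come from RefSeq (GRCm38.p6). Alternatives were 3 other scalings, DESeq2 1.42.0, no filter, a filter of 10 counts in each library, a replicate block, fits to the compared libraries only, each library left out in turn, and a change over 1 log2 unit.

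The genes and lists were chosen with earlier results of these data known. Named were the 10 genes, Ythdf1, the extremes of 4 pathway lists in each contrast, and the 5 genes nearest to Tnfaip3 and to Cyld by correlation among genes of at least 20 CPM in 1 group. Markers were taken for macrophages, B, T and NK cells, neutrophils, eosinophils, mast cells, mesothelium, fibroblasts and skeletal muscle.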

Additional observations from a re-analysis of the deposited data

Results flagged for a closer look

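The response to LPS differed between the genotype labels, by the interaction term of edgeR's quasi-likelihood fit, in the following named genes. Values are log2 units, positive where the change was more positive in KO. Traf1 gave 1.27, Tnfaip3 0.71, Tnip1 0.51 and Tnip3 0.45 among the 10 genes. Among the 34 genes of the pathway lists 8 were called, 5 with a positive and 3 with a negative value, where 18.0% of all genes were called. Traf5 gave 0.58 (adjusted p = 0.0142), Peli1 0.48 (adjusted p = 0.00189), Tank 0.36 (adjusted p = 0.0487), Map3k7, the gene of TAK1, 0.33 (adjusted p = 0.0273) and Itch 0.31 (adjusted p = 0.0358), whereas Tifa gave -0.43 (adjusted p = 0.00280), Peli2 -0.81 (adjusted p = 0.0303) and Map3k14 -0.89 (adjusted p = 0.00571). Peli1, Tank, Itch and Tifa lay outside the rule for named genes here and were added after their values were seen. Of 19 alternatives the call was lost in 15 for Tank (adjusted p up to 0.251), in 11 for Itch (up to 0.224), in 8 for Map3k7 (up to 0.178), in 5 for Peli2 (up to 0.112) and in 2 for Traf5 (up to 0.0640), and in none for Peli1, Tifa and Map3k14. Map3k14 was at 5.16 CPM in KO PBS and 3.04 CPM in KO LPS, against 4.53 and 4.97 CPM in WT. Peli2 changed with LPS by -3.00 log2 units in WT and by -3.82 in KO, so its negative value was a deeper fall. Itch and Map3k7 fell with LPS in WT (-0.25 and -0.36) and were not called in KO (0.06 and -0.03). Ythdf1 itself gave -0.42 (adjusted p = 0.00177).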

How the results depend on the processing

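The 10 genes were called higher with LPS in WT and in KO under RLE scaling, both other filters, DESeq2, the replicate block, fits restricted to the compared groups and each omission of a library. The cause of the changes below was not tested, except that totals alone and the upper quartile move the median of all genes. Under totals alone the direction turned for Traf3 with LPS (-0.316 in WT, -0.120 in KO), Traf6 with LPS (-0.393 and -0.289), Tnip3 in KO against WT under LPS (-0.0448), Tnfaip3 (0.0146) and Traf3 (0.00264) in KO against WT under PBS, and the interactions of Cyld (-0.0118) and Traf2 (-0.0564). With the upper quartile it turned for Traf6 in WT (-0.0399) and Tnip3 in KO against WT under LPS (-0.0240). With 1 library left out, differences near 0 between KO and WT crossed it, from -0.0455 to 0.0171 in Tnfaip3 and from -0.0834 to 0.00959 in Traf3 under PBS, and from -0.0500 to 0.136 in Tnip3 and from -0.0552 to 0.0115 in Ythdf1 under LPS, where both turned without replicate 1 of WT LPS. None of these differences between KO and WT, nor the interactions of Cyld and Traf2, was called before or after the turn.

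The count called between KO and WT under PBS ranged from 2 to 6 of 10 when 1 library was left out. With a change over 1 log2 unit also required, the counts were 0 under PBS, 0 under LPS and 1 (Traf1) for the interaction, as the largest differences without that rule were -0.76 and 0.68. The replicate numbers showed no clear pairing of the libraries (correlations of deviations from -0.0758 to 0.127), which cannot exclude one. With the replicate block the counts were 10 and 10 with LPS, 3 and 8 for KO against WT, and 4 for the interaction, Birc3 under PBS being lost (adjusted p = 0.0625). Of the called genes under PBS, 48.6% were higher in KO with TMM, 42.2% with the upper quartile and 61.6% under totals alone, and of called interactions 54.2% were positive with TMM, 43.1% with the upper quartile and 24.4% under totals alone. Depth limits Traf1 and Tnip3 under PBS, which rest on 50 to 149 counts per library.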
